A study of Homo sapiens with 6 samples.

Results

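The integrins and laminins are cell-matrix receptors and basement membrane proteins, and every gene that encodes a chain of either was followed here in HCT116SCs transfected with negative control (NC) siRNA or with siRNA against PSCA. Members were the protein-coding genes of the deposited expression table whose symbols name an integrin α chain, an integrin β chain from ITGB1 to ITGB8, or a laminin α, β or γ chain. The rule found 38 of 58735 genes (19951 of them protein-coding), with 18 integrin α, 8 integrin β and 12 laminin genes. It used names alone and no measured value.

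An integrin is a receptor of 1 α and 1 β chain that spans the plasma membrane and ties the matrix outside to the actin or keratin cytoskeleton inside. The β chain is shared by many α chains, and the α chain largely sets which ligand is bound. A laminin is a secreted trimer of 1 α, 1 β and 1 γ chain that is laid down in basement membranes, and it is a main ligand of intestinal epithelial cells.

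HCT116SCs are CD44+CD326+ cells sorted with magnetic beads from the colorectal cancer line HCT116 and grown as spheres in serum-free medium with EGF, bFGF and B27. Both groups received siRNA by liposomal transfection and were harvested 48 h later, 3 libraries with NC siRNA (labelled WT) and 3 with PSCA siRNA (siPSCA, labelled PSCA knockdown), so all cells share the sort, the line, the medium and the transfection. RNA was sequenced in paired ends on an Illumina instrument. Which PSCA siRNA went into the sequenced cells is not given in the sources used here, and the titles of siPSCA 2 and siPSCA 3 print other numbers after HCT than their remaining labels. The labels do not state that libraries of a group came from separate cultures, so p-values measure only the spread between these libraries. In bulk RNA, fewer cells of a type and less RNA per cell cannot be told apart.

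PSCA, the targeted gene, was read by 4, 12 and 15 reads in NC and by 9, 9 and 7 in siPSCA, so the groups overlapped and RNA of the target did not check the labels. Reads on genes ranged from 16099716 to 17302219 per library. NC 3 stood apart: its counts differed from those of NC 1 and NC 2 by a chi-square of 24.4 and 19.6 per degree of freedom, against 2.47 between NC 1 and NC 2 and at most 4.15 within siPSCA. Across 13792 tested genes the fold change rose with GC content (Spearman 0.664, or 0.603 without NC 3), and NC 3 deviated from NC 1 and NC 2 with GC content in the opposite direction (-0.561). These correlations are across genes of the same 6 libraries and describe them only. Fold changes and pair ratios of the integrin and laminin genes were therefore set beside values after the trends with GC content and length had been removed together, below called GC-corrected. Sums, shares and trimers were computed from the deposited FPKM alone. Summed FPKM of 7 epithelial and sort markers lay at 805-866 (NC) and 857-886 (siPSCA), but single markers moved both ways. KRT19 and KRT8, epithelial keratins, were at 119% and 116% of NC (log2 fold changes 0.25 and 0.22, neither called GC-corrected). KRT18, another epithelial keratin, was at 90.3% of NC and not called, with -0.40 GC-corrected, which was called. EPCAM (CD326), a sort marker, was at 88.7% of NC and not called on either scale, and VIL1 had at most 5 reads. The other sort marker, CD44, was at 73.5% and CDH1, E-cadherin, at 64.7% of NC (adjusted p 0.00193 and 0.00134 in limma), with -0.30 and -0.62 GC-corrected, both called. Leukocyte markers summed to at most 0.397, endothelial markers to at most 0.323, and 6 fibroblast markers to 3.49-5.74 in NC and 6.17-6.74 in siPSCA, nearly all of it COL1A1. These sums were not tested as a source of any value below.

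Of the 38 genes, 22 had a mean of at least 1 FPKM (fragments per kilobase of gene length, scaled to the reads of the library) over the 6 libraries and were tested, on 43 to 14913 reads each per library. Chains of one class differed widely in level. Per length, ITGB1, the common partner of most α chains, stood highest in NC with 131 ± 11.7 FPKM (SD, n = 3), followed by ITGB4, the keratin-linked β chain of hemidesmosomes, with 106 ± 7.21 FPKM. ITGB5, which pairs with ITGAV, was next among β chains at 6.85 ± 0.394 FPKM. Among α chains of NC, ITGA6 (33.4 ± 4.38 FPKM), ITGA2 (31.8 ± 2.19) and ITGA3 (30.2 ± 2.37) lay within each other's spread, and ITGA5 (16.4 ± 1.11) and ITGAV (15.9 ± 0.684) formed the next step. In the deposited FPKM of siPSCA that order opened up, with ITGA3 (30.7 ± 0.629 FPKM) above ITGA6 (23.2 ± 0.524) and ITGA5 (16.3 ± 0.292) above ITGA2 (14.8 ± 0.386). GC-corrected, ITGA3 fell no less than ITGA6 (log2 fold changes -0.42 and -0.32), whereas ITGA2 fell more than ITGA5 (-0.77 and -0.20). Among laminin chains of NC, LAMB3 (28.6 ± 2.14 FPKM), LAMA5 (26.2 ± 10.4) and LAMB2 (26.0 ± 3.50) were highest and did not differ beyond their spread.

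**Figure D1:**
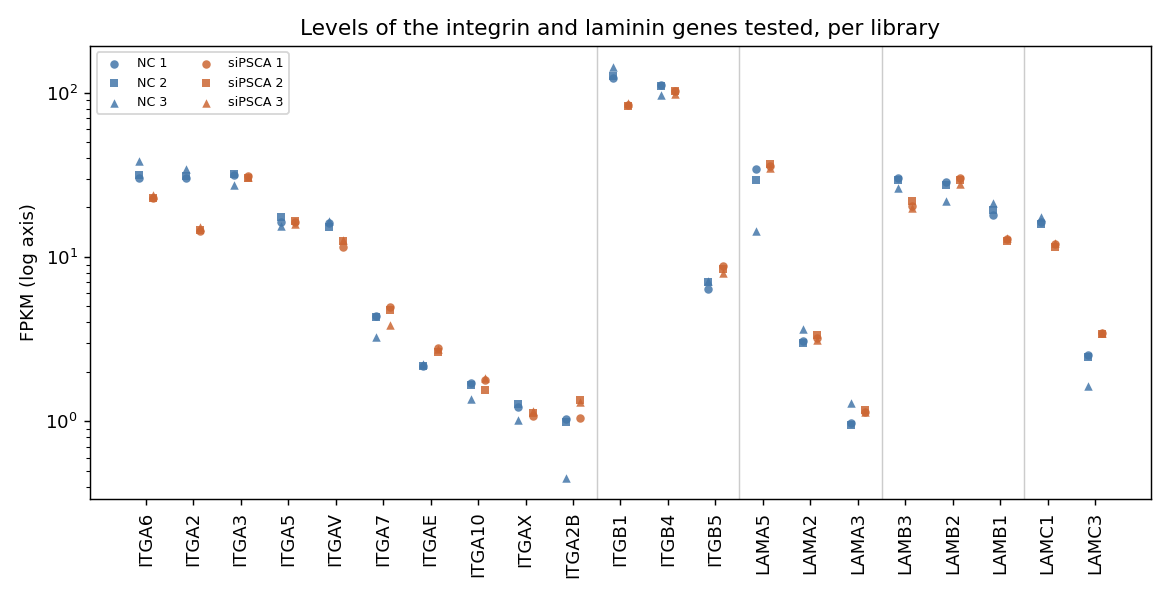
FPKM on a log axis of 21 of the 22 integrin and laminin genes tested, 1 point per library, NC in blue and siPSCA in orange, with grey lines between integrin α, integrin β, laminin α, laminin β and laminin γ chains. ITGA2 falls from 30.1-34.3 to 14.5-15.2 FPKM, whereas the triangle of NC 3 lies far under the other libraries for LAMA5 and LAMC3.

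Of the 22 tested genes, 11 (50.0%) passed an adjusted p under 0.05 in limma, beside 50.7% of all 13796 tested genes, so the share of chains called was near the background. By direction, 3 (13.6%) were higher in siPSCA beside 26.6% of all tested genes, and 8 (36.4%) were lower beside 24.2%. By the rule of a fold change (log2 over 0.5 in size, unadjusted p under 0.05), 3 chains (13.6%) passed, namely ITGA2, ITGB1 and LAMB1, beside 24.9% of all genes. The 2 groups did not overlap for 13 chains (59.1%) beside 64.5%. The median log2 fold change was -0.01 over the 22 chains and 0.01 over all tested genes. GC-corrected, 13 chains (59.1%) were called beside 40.2% of all genes, and all 13 were lower, beside 18.4%; their median over the 22 was -0.28 beside 0.02.

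**Figure D2:**
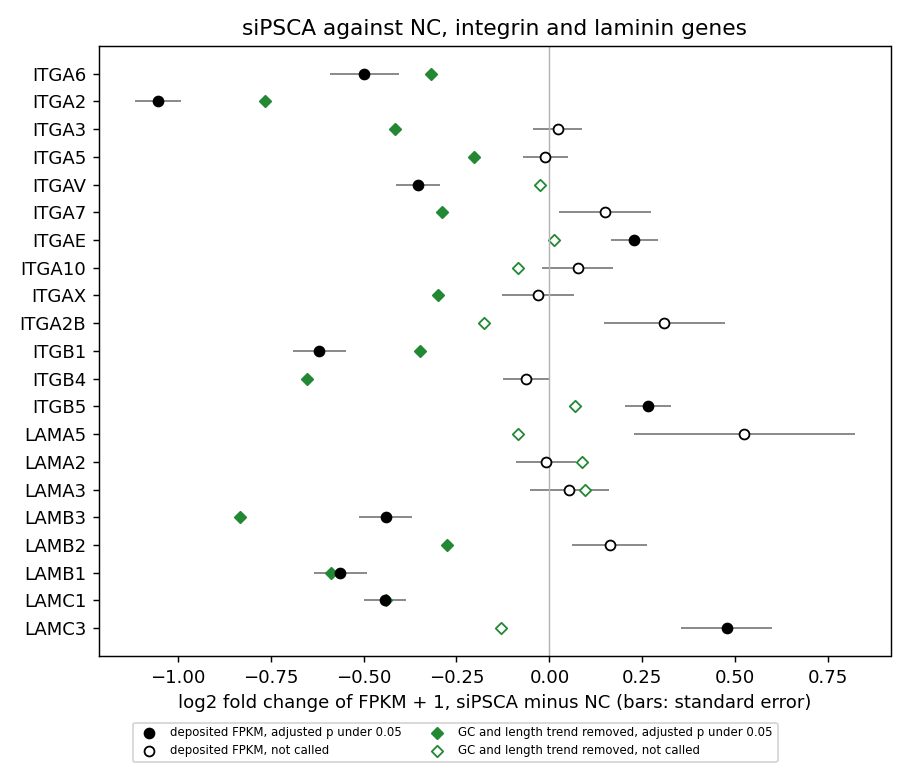
Log2 fold change of FPKM + 1, siPSCA minus NC, of 21 of the 22 tested genes with its standard error (black circles), and the GC-corrected value (green diamonds), filled where the adjusted p was under 0.05. Under both, ITGA2, ITGA6, ITGB1, LAMB1, LAMB3 and LAMC1 are lower, while ITGA3, ITGA5, ITGA7, ITGAX, ITGB4 and LAMB2 are called in the GC-corrected values alone and ITGAV, ITGAE, ITGB5 and LAMC3 in the deposited values alone.

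ITGA2, the α chain of the collagen receptor α2β1 (chromosome 5, 52989326 to 53094779, plus strand), fell the most. It measured 30.1, 31.0 and 34.3 FPKM in NC and 14.5, 14.7 and 15.2 in siPSCA. Every NC library was above every siPSCA library, and siPSCA held 46.5% of the NC mean. The log2 fold change was -1.05 ± 0.06 (SE), with an adjusted p of 0.000306 in limma, and -0.77 GC-corrected. ITGB1, its only partner (chromosome 10, 32900319 to 33005792, minus strand), measured 122, 126 and 144 FPKM in NC and 83.5, 83.4 and 86.7 in siPSCA. Again the groups did not overlap, with siPSCA at 64.7% of NC. The log2 fold change was -0.62 ± 0.07 with an adjusted p of 0.00161 in limma, and -0.35 GC-corrected.

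ITGA6, the laminin-binding α chain that pairs with ITGB1 or ITGB4 (chromosome 2, 172427354 to 172506282, plus strand), also fell. Its FPKM were 30.1, 31.7 and 38.4 in NC and 22.8, 23.0 and 23.8 in siPSCA. NC 3 was the highest library, and the lowest NC library was still above all 3 of siPSCA. The log2 fold change was -0.50 ± 0.09 with an adjusted p of 0.00667 in limma, and -0.32 GC-corrected. ITGAV, the α chain of the receptors for vitronectin and fibronectin (chromosome 2, 186590065 to 186680901, plus strand), measured 16.1, 15.1 and 16.4 FPKM in NC and 11.5, 12.5 and 12.7 in siPSCA. The 3 NC libraries were close together and above siPSCA. Its log2 fold change of -0.35 ± 0.06 had an adjusted p of 0.00502 in limma, but the GC-corrected value was -0.02 with an adjusted p of 0.698. The ITGAV transcript has the lowest GC content of the 22, at 38.3%, and the part of GC content in its fall was not tested.

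The 2 integrin chains that rose were of lower level. ITGB5 (chromosome 3, 124761948 to 124901418, minus strand) measured 6.40, 7.03 and 7.12 FPKM in NC and 8.81, 8.44 and 8.05 in siPSCA. The groups were apart, with a log2 fold change of 0.27 ± 0.06 and an adjusted p of 0.0146 in limma, and the call was lost without siPSCA 1 or siPSCA 2. ITGAE, the α chain that binds E-cadherin on T cells (chromosome 17, 3714628 to 3801243, minus strand), measured 2.17, 2.18 and 2.22 FPKM in NC and 2.81, 2.65 and 2.76 in siPSCA. The 3 NC values lay within a narrow band below siPSCA, and the log2 fold change was 0.23 ± 0.06 with an adjusted p of 0.0252 in limma. That call was lost without NC 1, NC 2 or any siPSCA library, and with the replicate number as a block (adjusted p 0.0602 in limma). GC-corrected, the log2 fold changes were 0.07 (ITGB5) and 0.01 (ITGAE), neither called. Strand of the counts is not given in the sources used here, and HASPIN on the opposite strand shares 6.41% of the ITGAE exonic bases, with 240.5 reads per library beside 286 for ITGAE.

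The bases upstream of the start site are printed for 5 of the called chains, 4 called lower and ITGB5 called higher. ITGAV, LAMB1, LAMB3 and ITGAE were called and had windows too, which are not printed. The printed 5 do not stand for all called chains. The windows are the 250 bases before the RefSeq start nearest to the start of the deposited gene, in GRCh38.p14, read 5′ to 3′ on the strand of the gene, and 26 of the 38 members had one. Coordinates are chr5:52989102-52989351 (plus) for ITGA2, chr10:32958231-32958480 (minus) for ITGB1, chr2:172427086-172427335 (plus) for ITGA6, chr1:183023170-183023419 (plus) for LAMC1 and chr3:124901419-124901668 (minus) for ITGB5. The ITGB1 window lies 47562 bases inside the deposited gene, whose start is that of a longer gene model. Capitals mark matches on either strand to GGGCGG, the GC box read by SP1-like factors, to TGANTCA, the AP-1 motif, to TATAAA, the TATA box, or to ACGTG, the core of hypoxia and E-box motifs, which may overlap its own reverse.
ITGA2: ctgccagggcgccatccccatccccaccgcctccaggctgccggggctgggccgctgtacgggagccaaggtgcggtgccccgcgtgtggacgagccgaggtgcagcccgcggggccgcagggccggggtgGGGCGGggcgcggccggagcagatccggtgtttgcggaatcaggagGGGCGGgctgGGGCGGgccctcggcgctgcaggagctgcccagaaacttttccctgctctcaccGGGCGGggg
ITGB1: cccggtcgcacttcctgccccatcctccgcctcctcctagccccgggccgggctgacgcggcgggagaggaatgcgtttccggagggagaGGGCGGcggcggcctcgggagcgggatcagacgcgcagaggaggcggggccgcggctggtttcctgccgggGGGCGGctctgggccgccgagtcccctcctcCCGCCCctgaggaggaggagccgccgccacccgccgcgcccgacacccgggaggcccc
ITGA6: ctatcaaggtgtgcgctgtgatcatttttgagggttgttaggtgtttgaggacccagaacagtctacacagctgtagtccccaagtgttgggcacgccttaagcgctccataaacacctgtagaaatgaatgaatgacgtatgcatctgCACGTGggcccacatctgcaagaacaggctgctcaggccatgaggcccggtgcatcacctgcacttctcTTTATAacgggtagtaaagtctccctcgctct
LAMC1: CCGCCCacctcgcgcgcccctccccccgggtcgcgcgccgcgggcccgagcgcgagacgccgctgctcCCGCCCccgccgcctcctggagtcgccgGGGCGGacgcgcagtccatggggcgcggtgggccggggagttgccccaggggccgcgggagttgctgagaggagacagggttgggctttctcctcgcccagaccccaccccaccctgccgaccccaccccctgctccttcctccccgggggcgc
ITGB5: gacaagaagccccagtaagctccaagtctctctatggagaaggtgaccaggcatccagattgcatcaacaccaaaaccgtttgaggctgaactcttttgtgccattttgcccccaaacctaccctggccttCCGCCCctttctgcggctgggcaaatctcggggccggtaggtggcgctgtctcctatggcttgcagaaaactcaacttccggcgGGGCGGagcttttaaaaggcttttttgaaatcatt

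In the printed windows ITGA2 holds GGGCGG 4 times, ITGB1 and LAMC1 3 times each, and ITGB5 2 times, whereas ITGA6 holds none. Of the called chains with a window not printed, LAMB1 holds it 4 times and LAMB3 1 time, and ITGAV and ITGAE hold none. The ITGA6 window has a TATAAA match 32 bases before the start, on the strand opposite to the gene (printed as TTTATA), and a pair of overlapping ACGTG matches. ITGA6 and ITGB1 had 2 windows each and ITGB5 had 3, of which only the nearest is printed. Among members with a window, GGGCGG was present for 5 of the 7 called lower, 1 of the 2 called higher, 4 of the 7 not called and 3 of the 10 not tested, and for 42.6% of all 34788 promoter windows. TGANTCA was present for 1 of the 26 (6.59% of all windows), TATAAA for 1 (10.8%) and ACGTG for 2 (18.5%). A match names letters in the window and not a bound site. Median GC content of the windows was 70.8% for the members called lower and 58.0% for all windows, while the transcripts of all members called lower had a median of 45.8%.

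The partner of ITGA6 in hemidesmosomes, ITGB4 (chromosome 17, 75721328 to 75757818, plus strand), was not called. It measured 110.5, 109 and 97.3 FPKM in NC and 102, 102 and 98.5 in siPSCA. NC 3 was the lowest of the 6 libraries, so the groups overlapped, and the log2 fold change was -0.06 ± 0.06 (adjusted p 0.427 in limma). Without NC 3 it was -0.12 with an adjusted p of 0.0237 in limma, and GC-corrected -0.65 with 0.00258; GC content of the ITGB4 transcript is 63.7%. ITGA3, the α chain of the laminin receptor α3β1, measured 31.4, 31.8 and 27.5 FPKM in NC and 31.3, 30.04 and 30.6 in siPSCA. The groups overlapped with a log2 fold change of 0.02 ± 0.07 (adjusted p 0.801 in limma), which turned to -0.42 GC-corrected (adjusted p 0.00329). ITGA5, the fibronectin receptor α chain, gave 16.4, 17.6 and 15.4 FPKM in NC and 16.4, 16.5 and 16.0 in siPSCA. Its log2 fold change was -0.01 ± 0.06 (adjusted p 0.892 in limma) and -0.20 GC-corrected, which was called.

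Of the other tested α chains none was called on the deposited values. ITGA7, a laminin-binding chain of muscle, measured 3.99 ± 0.629 FPKM in NC and 4.53 ± 0.583 in siPSCA, a log2 fold change of 0.15 (-0.29 GC-corrected, adjusted p 0.0195 in limma). ITGAX, a leukocyte chain, gave a log2 fold change of -0.03 (-0.30 GC-corrected, adjusted p 0.04 in limma). ITGA10, a collagen-binding chain of cartilage, had 0.08 and ITGA2B, the platelet fibrinogen receptor chain, had 0.31, and neither was called on either scale. ITGA2B did not overlap between groups, with NC 3 lowest at 0.4497 FPKM.

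Of the 16 genes under 1 FPKM, ITGB8 missed the minimum narrowly, with 259, 309 and 246 reads in NC, at most 275 in siPSCA and a mean of 0.979 FPKM, and its groups overlapped. ITGA1, a collagen receptor chain, was read 46, 51 and 64 times in NC and 27, 30 and 36 times in siPSCA, all 3 siPSCA libraries below NC. ITGAD, a leukocyte chain, was read 8, 3 and 2 times in NC and 13, 9 and 13 in siPSCA, the reverse order. With no minimum, neither passed (log2 fold changes -0.09 and 0.12, adjusted p 0.161 and 0.137 in limma), and 0.137 was the lowest of the 16 genes. LAMB4 had 0 reads in every library, and a count of 0 allows up to 3 reads per library. The leukocyte chains ITGAL, ITGAM and ITGB2 had at most 21 reads, ITGA4 and ITGA8 at most 3, and ITGB3, the platelet and endothelial β chain, at most 10. ITGB6, the epithelial partner of ITGAV, had 18 to 42 reads in NC and 18 to 28 in siPSCA. ITGA9 and ITGA11 had 6 to 21 reads, ITGB7 7 to 10, LAMA4, an endothelial and mesenchymal chain, 28 to 44, and LAMA1, an embryonic chain, at most 2. ITGB7 shares 42.1% of its exonic bases with ZNF740 on the opposite strand and ITGB3 51.6% with a gene on its own strand, so their reads are uncertain. ITGA1 shares 2.56% with PELO on its own strand, which had a mean of 637 reads per library beside 42.3 for ITGA1. ITGAD shares 3.31% with a gene on its own strand that had a mean of 14.8 reads beside 8 for ITGAD, so reads of ITGA1 and ITGAD are uncertain too.

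Receptor pairs were compared as the ratio of the FPKM of their chains in each library. Of 24 known pairs, 9 had both chains tested, and the ratio of ITGB1 to ITGB4 was added to make 10. For all 10 ratios the groups did not overlap, and each gave p = 0.1 in a two-sided exact permutation test, the smallest that 3 libraries against 3 allow, so no ratio could pass 0.05. Genes as a whole did not overlap in 64.5% of cases, and most of these ratios share ITGB1, so they are not independent.

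ITGA2 fell more than its partner. The ratio of ITGA2 to ITGB1 was 0.247, 0.247 and 0.238 in NC and 0.173, 0.176 and 0.176 in siPSCA, a log2 difference of -0.48 that was -0.42 GC-corrected. ITGA6 and ITGB1 fell together, so their ratio moved from 0.246, 0.252 and 0.266 to 0.274, 0.276 and 0.275, a log2 difference of 0.11 (0.03 GC-corrected). ITGA3 held level while ITGB1 fell, and its ratio to ITGB1 rose from 0.257, 0.253 and 0.191 to 0.375, 0.360 and 0.353, a log2 difference of 0.65. That difference turned to -0.07 GC-corrected. GC content is 61.3% for the ITGA3 and 40.0% for the ITGB1 transcript, and its part in the change was not tested apart from length. For ITGA5 with ITGB1 the difference was 0.61 (0.15 GC-corrected), for ITGA7 0.81 (0.06), for ITGA10 0.75 (0.26) and for ITGAV 0.25 (0.32).

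The 2 receptors of ITGA6 were set apart by their β chains. ITGB1 exceeded ITGB4 in all NC libraries, with ratios of 1.11, 1.15 and 1.48, and lay below it in all siPSCA libraries, with 0.819, 0.815 and 0.880. The log2 difference was -0.56, and it turned to 0.30 GC-corrected, with 0.24 when NC 3 was left out as well. ITGA6 to ITGB4 fell from 0.272, 0.291 and 0.394 to 0.224, 0.225 and 0.242, a log2 difference of -0.45, which turned to 0.33 GC-corrected. ITGAV to ITGB5 fell from 2.51, 2.15 and 2.31 to 1.30, 1.48 and 1.57, a log2 difference of -0.68, of which -0.09 was left GC-corrected. Only ITGA2 to ITGB1 among the ratios that fell in siPSCA moved by a like amount on both scales. The part of GC content in these ratios was not tested beyond these values.

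**Figure D3:**
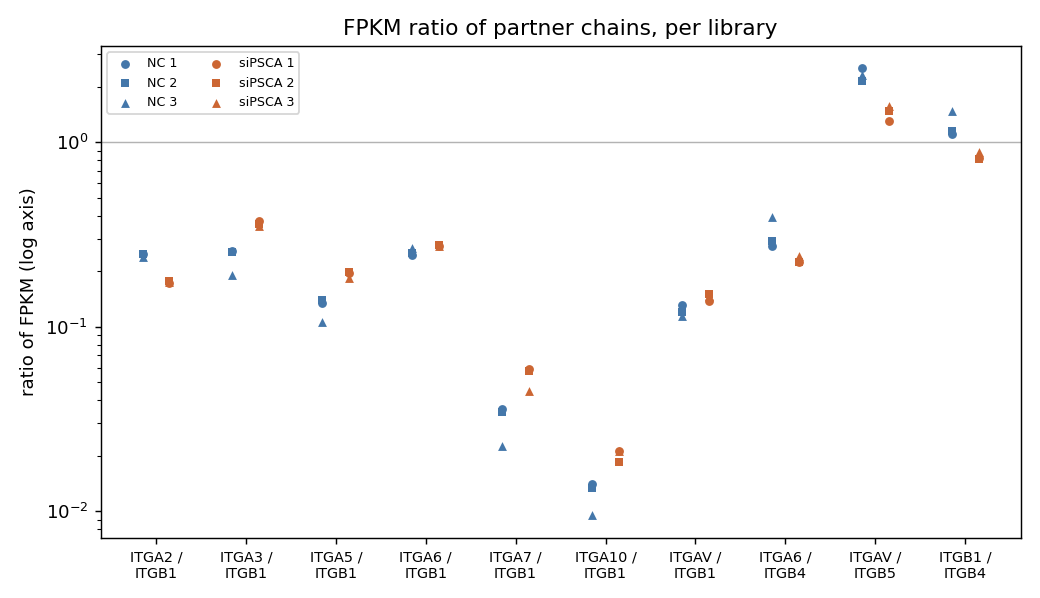
Ratio of the FPKM of partner chains on a log axis, 1 point per library, with NC in blue, siPSCA in orange and a grey line at equal FPKM. ITGB1 to ITGB4 lies above the line in NC (1.11-1.48) and below it in siPSCA (0.815-0.880), and NC 3 lies apart from NC 1 and NC 2 for the ratios that hold ITGA3, ITGA7 or ITGB4.

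Among the laminin genes, LAMB3, LAMB1 and LAMC1 fell and LAMC3 rose. LAMB3, a β chain of epithelial basement membranes (chromosome 1, 209614870 to 209652466, minus strand), measured 30.2, 29.6 and 26.2 FPKM in NC and 20.5, 22.02 and 20.0 in siPSCA. NC 3 was the lowest NC library and still above siPSCA. Its log2 fold change was -0.44 ± 0.07 with an adjusted p of 0.00429 in limma, and -0.83 GC-corrected, the largest fall of any chain on that scale. LAMA3, an α chain of epithelial laminins, measured 0.981, 0.951 and 1.30 FPKM in NC and 1.14, 1.17 and 1.13 in siPSCA. The siPSCA libraries lay inside the range of NC, and the log2 fold change of 0.05 ± 0.11 was not called.

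LAMB1, a β chain of several other laminins (chromosome 7, 107923799 to 108003255, minus strand), measured 17.9, 19.2 and 21.3 FPKM in NC and 12.9, 12.5 and 13.1 in siPSCA. The groups were far apart, with siPSCA at 65.9% of NC. The log2 fold change was -0.56 ± 0.07 with an adjusted p of 0.00201 in limma, and -0.59 GC-corrected. LAMC1, the most widely used γ chain (chromosome 1, 183023460 to 183145592, plus strand), measured 16.3, 15.8 and 17.5 FPKM in NC and 12.04, 11.5 and 12.1 in siPSCA. All NC libraries were above siPSCA, at a log2 fold change of -0.44 ± 0.06 with an adjusted p of 0.00204 in limma, and -0.44 again GC-corrected. LAMB1 and LAMC1 have GC contents of 49.5% and 48.6%, near the middle of the members.

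LAMB2, the β chain that can take the place of LAMB1, measured 28.7, 27.3 and 22.03 FPKM in NC and 30.1, 29.2 and 27.8 in siPSCA. NC 1 lay inside the range of siPSCA and NC 3 lowest of all, and the log2 fold change of 0.16 ± 0.10 was not called (adjusted p 0.222 in limma) and turned to -0.27 GC-corrected, which was. LAMC3, a γ chain of low level (chromosome 9, 131009082 to 131094473, plus strand), measured 2.52, 2.45 and 1.64 FPKM in NC and 3.44, 3.39 and 3.43 in siPSCA. The 3 siPSCA values were nearly equal and above NC, with NC 3 lowest. Its log2 fold change was 0.48 ± 0.12 with an adjusted p of 0.0197 in limma. The call was lost without any one siPSCA library, and the value turned to -0.13 GC-corrected.

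LAMA5, the main laminin α chain of the intestinal basement membrane (chromosome 20, 62307955 to 62367312, minus strand), rested on NC 3. It measured 34.5, 29.6 and 14.5 FPKM in NC and 35.6, 36.9 and 35.0 in siPSCA. All NC libraries were below siPSCA, NC 1 narrowly and NC 3 by far. The log2 fold change was 0.52 ± 0.30 (adjusted p 0.184 in limma), and 0.16 without NC 3 (adjusted p 0.0956 in limma). GC-corrected it was -0.08, and -0.25 with NC 3 left out as well. LAMA5 has the highest GC content of the members, 66.4%. LAMA2, the α chain of muscle and nerve laminins, measured 3.25 ± 0.360 FPKM in NC and 3.22 ± 0.116 in siPSCA, a log2 fold change of -0.01 that was not called.

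Of 14 laminin trimers, 9 had all 3 chains tested. LAMA3 was lowest in its trimers with LAMC1, at 0.951 to 1.30 FPKM in NC and 1.13 to 1.17 in siPSCA, and LAMA2 was lowest in its trimers with LAMC1. In the trimers of LAMA5 and LAMC1 with LAMB1 or LAMB2 the lowest chain was LAMC1 in every library except NC 3, where it was LAMA5. The lowest chain of those 2 trimers stood at 16.3, 15.8 and 14.5 FPKM in NC and 12.04, 11.5 and 12.1 in siPSCA, and the groups did not overlap. In the trimers with LAMC3 the lowest chain rose, also without overlap. With LAMA5 and LAMB2 it went from 2.52, 2.45 and 1.64 FPKM to 3.44, 3.39 and 3.43. With LAMA2 and LAMB1 it went from the same NC values to 3.20, 3.34 and 3.11. Genes as a whole did not overlap in 64.5% of cases, and LAMC3 turned to -0.13 GC-corrected. FPKM of chains do not measure assembled trimers.

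Summed over a class, integrin α chains fell from 138 ± 2.77 to 109 ± 0.568 FPKM (79.0% of NC) and integrin β chains from 245 ± 4.90 to 195 ± 0.522 (79.8%). Laminin β chains went from 74.1 ± 3.99 to 62.7 ± 1.63 FPKM (84.6%) and laminin γ chains from 32.0 ± 0.982 to 26.5 ± 0.677 (82.9%). Laminin α chains went the other way, from 30.7 ± 9.87 to 40.4 ± 1.11 FPKM, with NC libraries at 38.7, 33.7 and 19.7. In none of the 5 sums did the groups overlap, each with p = 0.1 in a two-sided exact permutation test, the smallest possible.

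Within its class, ITGA2 lost the most share of the α chains, from 23.0% ± 1.15 (SD, n = 3) to 13.6% ± 0.285, and ITGA3 gained the most, from 21.9% ± 2.07 to 28.1% ± 0.611, with NC 3 lowest at 19.5%. The GC-corrected fold change of ITGA3 itself was -0.42 and that of its ratio to ITGB1 -0.07. ITGB1 went from 53.3% ± 3.68 to 43.3% ± 1.08 of the β chains, and ITGB4 from 43.2% ± 3.76 to 51.7% ± 0.964, but their ratio turned to 0.30 (log2) GC-corrected. Among laminin β chains LAMB2 went from 35.0% ± 2.93 to 46.3% ± 0.948 and LAMB3 from 38.6% ± 0.839 to 33.2% ± 1.21, although LAMB2 itself was not called and was lower GC-corrected (-0.27, beside -0.83 for LAMB3). LAMC3 went from 6.91% ± 1.71 to 12.9% ± 0.253 of the γ chains, and its fold change turned to -0.13 GC-corrected. For ITGAV, LAMA2, LAMA3 and LAMA5 the shares overlapped between groups. Each share that did not overlap had p = 0.1 in a two-sided exact permutation test, and shares of a class are tied to each other by construction.

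Among the 22 tested members the fold change rose with the GC content of the transcript, with a Spearman correlation of 0.715, and 0.579 without NC 3. The difference of NC 3 from the other NC libraries fell with GC content at -0.854. These values are across genes that share the same libraries and describe them. Median GC content was 45.8% over the members called lower and 54.8% over those called higher. LAMB3 stood off the trend, with 58.9% GC content and a fall. The 6 members ITGA2, ITGA6, ITGB1, LAMB1, LAMB3 and LAMC1 were called lower under every setting that was tried with the adjusted threshold.

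The wider adhesion machinery was covered by a list of 73 genes, all found, of which 56 were tested. Of these, 35 (62.5%) were called, beside 50.7% of all genes, with a median log2 fold change of 0.17. Higher were 21 (37.5%, beside 26.6% of all genes) and lower 14 (25.0%, beside 24.2%), the latter near the background. GC-corrected, 26 were called (46.4%, beside 40.2% of all genes), with a median of -0.01. Of these, 12 were higher and 14 lower, beside 2998 higher and 2542 lower (18.4%) of all 13792 genes. The same values over all genes apply to the roles below. Of 26 tested activators and adaptors, 8 (30.8%) rose and 7 (26.9%) fell (GC-corrected 6 and 5, 42.3% called). BCAR1, a scaffold of focal adhesions, and SRC, its kinase, rose with log2 fold changes of 0.89 and 0.74 (adjusted p 0.0088 and 0.0079 in limma), and 0.36 and 0.34 GC-corrected. RAP1A, a GTPase that activates integrins, had -0.48 (0.00676), and FERMT1, the epithelial kindlin that binds β tails, had -0.40 (0.00276). GC-corrected, RAP1A was at -0.18 and no longer called (adjusted p 0.0656 in limma), and FERMT1 at -0.43. Of 5 genes listed as inactivators or their binding partners, 3 (60.0%) rose and 1 (20.0%) fell (GC-corrected 1 and 0, 20.0% called). Not every gene of this list inactivates integrins itself, so its counts give no direction of integrin activity. SHARPIN, which holds integrins inactive, had 0.89, FBLIM1, a filamin-binding adaptor, 0.36 and KRIT1, a partner of an integrin inhibitor, -0.32 (adjusted p 0.0122, 0.0139 and 0.0177 in limma), and none of the 3 was called GC-corrected. The FBLIM1 call was lost without siPSCA 1 or siPSCA 2, and that of KRIT1 without siPSCA 1 or siPSCA 3.

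Of 10 tested matrix ligands, 2 (20.0%) rose and 2 (20.0%) fell, beside 26.6% and 24.2% of all genes (GC-corrected 2 and 3, 50.0% called beside 40.2%). FN1, the fibronectin ligand of ITGA5 and ITGAV, measured 5.40, 5.60 and 6.26 FPKM in NC and 3.80, 4.02 and 4.14 in siPSCA, lower in all siPSCA libraries (log2 fold change -0.44, adjusted p 0.00409 in limma) and not called GC-corrected. AGRN, a basement membrane proteoglycan that binds laminin, measured 16.9, 14.7 and 7.35 FPKM in NC and 25.4, 24.8 and 23.9 in siPSCA. Every siPSCA library was above NC, and the log2 fold change was 0.95 (adjusted p 0.0284 in limma). GC-corrected it was 0.24 and not called (adjusted p 0.116 in limma), and the call was also lost without any one siPSCA library. COL4A5 and COL4A3, chains of basement membrane collagen, moved apart with 0.24 and -0.44, with 0.23 and -0.44 GC-corrected (adjusted p 0.0407 and 0.0245 in limma on the deposited values). The COL4A5 call was lost without any one siPSCA library and that of COL4A3 without NC 1 or siPSCA 1.

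Of 7 other laminin receptors and hemidesmosome genes, 5 (71.4%) rose and 1 (14.3%) fell, beside 26.6% of all genes higher and 24.2% lower. GC-corrected, 2 rose and 1 fell (42.9% called, beside 40.2% of all genes). DST, whose epithelial form ties ITGB4 to keratin, measured 14.8, 13.8 and 14.5 FPKM in NC and 5.00, 6.63 and 7.01 in siPSCA. It was lower in every siPSCA library, with a log2 fold change of -1.10 (adjusted p 0.0013 in limma) and -0.46 GC-corrected. PLEC, the other keratin linker, had 0.74 (adjusted p 0.0041 in limma) and was not called GC-corrected. CD151, the tetraspanin that binds ITGA3 and ITGA6, measured 26.4, 26.7 and 18.6 FPKM in NC and 47.1, 46.6 and 43.8 in siPSCA, above NC in every library. Its log2 fold change was 0.93 (adjusted p 0.00332 in limma) and 0.38 GC-corrected.

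Of 8 tested tetraspanins and membrane partners, 3 (37.5%) rose and 3 (37.5%) fell, beside 26.6% and 24.2% of all genes (GC-corrected 1 and 5, 75.0% called beside 40.2%). SLC3A2, which binds β tails as the CD98 heavy chain, rose by 0.67 on the log2 scale (adjusted p 0.00926 in limma, 0.34 GC-corrected) and CD82, a tetraspanin, 0.46 (0.0341), with the CD82 call lost GC-corrected and without NC 2 or any one siPSCA library. PLAUR, the urokinase receptor that sits beside integrins, measured 24.6, 23.7 and 25.7 FPKM in NC and 10.4, 10.04 and 9.86 in siPSCA. All siPSCA libraries were below NC, and the log2 fold change was -1.21 (adjusted p 0.000125 in limma) and -1.47 GC-corrected. CD47, the partner of ITGAV with ITGB3, had -0.48 (adjusted p 0.00142 in limma) and -0.15 GC-corrected, still called.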

How the data were processed

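RNA of 6 libraries (3 NC, 3 siPSCA) was analysed, grouped by the sample labels. The authors deposited 1 table of FPKM per gene, with gene length, position and biotype. The aligner, the counting program and the strand setting are not given in the sources used here, and FPKM carry the composition of each library, GC content included. All 58735 genes carry the positions of GENCODE 29 (GRCh38). FPKM times gene length gave whole reads for 100% of values (tolerance 0.01), so reads were recovered.

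The linear model of limma 3.58.1 in R 4.3.3 (lmFit, eBayes with a trend) was fitted to log2(FPKM + 1), a scale that understates changes of low genes, on the group alone. A mean FPKM of 1 was required, which 13796 genes reached, and p-values were adjusted over these by Benjamini and Hochberg. GC-corrected values were fitted after regressing each library's deviations on splines of GC content and length. Ratios, sums and shares were compared by exact permutation. Python 3.11.15, pandas 2.3.3, numpy 2.4.6, scipy 1.17.1 and matplotlib 3.10.9 were used, and the fits were tested on simulated data. Promoter windows came from RefSeq.

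The members and the lists of pairs, trimers, markers and other adhesion genes were chosen with earlier results of these data known. Members are given by value, range or count, except that results of 1 tested member are not reported here, and of the other adhesion genes the 2 largest rises and 2 largest falls that were called are named per role. Alternatives were a pseudocount of 0.1, other minimums, TPM, median-of-ratios scaling, limma-voom on recovered reads, removal of the GC and length trend, a replicate block, a fold rule and leaving out each library. Leaving out NC 3 together with the GC correction, and the alternatives for pair ratios, were chosen after seeing the data. Counting limits cover counting error only.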

Additional observations from a re-analysis of the deposited data

How the results depend on the processing

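The count of 11 integrin and laminin genes called (3 higher, 8 lower) did not move by over 1.5 times with a pseudocount of 0.1, a minimum of 0.1 FPKM, TPM, median-of-ratios scaling or limma-voom on recovered reads. With no minimum 1 gene was higher. GC-corrected, 0 were higher and 13 lower, and the same was found GC-corrected with NC 3 left out as well. Leaving out NC 3 alone gave 3 higher and 9 lower. With the replicate block 10 were called, and with the block and the GC correction 0 were higher. With the fold rule 3 were called, 0 higher and 3 lower. Leaving out 1 library gave 7 to 12 called, 0 to 3 higher and 7 to 9 lower, the fewest without siPSCA 2. Of the 11 genes called, 6 kept their call under every setting with the adjusted threshold.

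Of the other adhesion genes, 35 were called (21 higher, 14 lower). GC-corrected, 12 were higher, and with the block as well 22 were called, 10 of them higher. The fold rule gave 13 (23.2%, near the 24.9% of all genes), 11 higher and 2 lower. Leaving out 1 library gave 22 to 37 called, 13 to 22 higher and 9 to 15 lower, the fewest without siPSCA 1.

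ITGA10, ITGA2B and LAMA2, not called on any scale, changed sign GC-corrected (-0.09, -0.18 and 0.09), and ITGA3 (TPM or without NC 3), ITGA5, ITGAX and LAMA2 (leaving out 1 library) crossed 0 by at most 0.06. Larger changes of sign came with the GC correction. The log2 fold change became -0.42 for ITGA3 (-0.36 without NC 3), -0.29 for ITGA7 (-0.29), -0.27 for LAMB2 (-0.27) and -0.13 for LAMC3 (-0.10), the same with the replicate block, and -0.25 for LAMA5 without NC 3. The log2 difference of the ratio became -0.0674 for ITGA3 to ITGB1 (-0.0452 without NC 3), 0.33 for ITGA6 to ITGB4 (0.30) and 0.30 for ITGB1 to ITGB4 (0.24). Whether the numbers of the replicates pair the samples is not settled by the small correlations of their deviations. Those of same-numbered libraries were 0.0955, 0.0132 and 0.134. NC 1 and NC 3 correlated best with the siPSCA library of the same number, whereas NC 2 correlated best with siPSCA 1 (0.0363). Genes called over all 13796 ranged from 4627 to 7425 when 1 library was left out.

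With 3 libraries per group, exact permutation cannot fall below 0.1, and most genes under 1 FPKM rest on few reads. The causes of the changes were not tested.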
